A study of Rattus norvegicus with 24 samples.

Results

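The genes of the cytosolic ribosomal proteins were followed in dorsal root ganglia of rats with vincristine neuropathy, treated or not with morphine or oxycodone. They were taken from the gene names of an expression array by symbol alone: Rpl or Rps followed by a number, together with Rplp0, Rplp1, Rplp2 and Rpsa, and without the S6 kinases, whose names begin with Rps6k. The rule gave 65 of the 22517 probes of the array, each for a different gene: 39 genes of the large subunit, 23 of the small subunit and 3 of the stalk. Lumbar ganglia (L2 to L5) of male Sprague-Dawley rats, 3 months old per the labels, were hybridised to Illumina RatRef-12 BeadChips, 1 array per rat. There were 6 groups of 4 rats: vincristine-morphine, vincristine-oxycodone and vincristine-saline treated rats, and saline-morphine, saline-oxycodone and saline-saline treated rats. Vincristine, a vinca alkaloid that binds tubulin and causes a painful sensory neuropathy, or saline was given for 10 days, and morphine, oxycodone or saline was then given for 5 days. All rats thus received injections over both periods, and the 12 rats without vincristine are called controls here. The whole ganglion was taken, so that fewer cells of a type and less RNA per cell cannot be told apart.

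Values are normalized bead signals on a log2 scale, on which a difference of 1 is a doubling. A probe was kept when its detection p was at most 0.0005 on at least 4 of the 24 arrays, which held for 7043 probes, and each array detected 6112 or more. Sensory neuron markers were present throughout: the mean of 12 kept marker probes, such as those of peripherin and the neurofilaments, lay between 11.62 and 11.78 on all arrays. Markers of red cells did differ between vincristine and control arrays. The 7 kept probes for red cell and reticulocyte markers averaged 10.48 to 11.83 on vincristine arrays and 8.41 to 9.70 on control arrays. The 9 kept skeletal muscle probes averaged over 7.5 on 6 arrays. Of these, 5 came from opioid-treated rats, which gave 16 of the 24 arrays, and 5 from vincristine-treated rats, which gave 12. No muscle probe was called with vincristine or with an opioid. The 24 columns of signals run in 4 blocks of 6, and a block holds 1 array from each group. These blocks are called sets below; what a set stands for is not stated in the sources used here.

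The ribosome reads messenger RNA on its small subunit and joins amino acids on its large subunit. Nearly all of its proteins are needed in equal numbers, and the P stalk (Rplp0 with Rplp1 and Rplp2) recruits the elongation factors. The messages for these proteins are themselves among the most abundant in a cell. In mammals they begin with a C followed by a run of C and T bases, the terminal oligopyrimidine (TOP) tract, through which growth signals that pass by mTORC1 set their translation. In sensory neurons some of these messages are also carried into axons.

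The TOP tract is shown first because it is a sequence feature that the choice by symbol did not use. Start sites were taken from RefSeq promoters of the rat build GRCr8, in which 53 of the 65 genes were found. A C at the annotated start base followed by at least 4 further C or T bases, read on the strand of the gene, stood in 21 of the 53 (39.6%), against 2.63% of all 33469 promoters. The letters CTTTCC, searched on both strands and free to overlap the tract, stood in the 30 bases around the start of 13 of the 53 genes (24.5%) and of 2.52% of all promoters. The windows below run from 15 bases before the start to 15 bases from the start on, and capitals mark the tract. The first 6 genes carry it; they are 4 genes described by sample below and 2 of the stalk. They lie at chrX:157205835-157205864 (plus strand), chr7:10068101-10068130 (minus), chr18:70856261-70856290 (plus), chr3:43165907-43165936 (minus), chr12:46718376-46718405 (minus) and chr8:71290858-71290887 (minus).
Rpl10: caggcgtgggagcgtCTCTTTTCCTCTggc
Rps15: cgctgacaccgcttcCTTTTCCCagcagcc
Rpl17: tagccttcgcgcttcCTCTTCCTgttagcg
Rpl35: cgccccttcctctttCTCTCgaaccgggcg
Rplp0: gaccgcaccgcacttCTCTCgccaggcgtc
Rplp1: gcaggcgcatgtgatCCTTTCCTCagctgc

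For contrast, Rpsa (chr8:128728864-128728893, plus), Rplp2 (chr1:205975906-205975935, plus), Rpl41 (chr7:1563483-1563512, minus) and Rps16 (chr1:92770643-92770672, plus) have no such tract at the annotated start base. A tract that begins a few bases from the annotated start is not counted; the windows of Rpsa and Rplp2 open with a run of C and T bases upstream of it.
Rpsa: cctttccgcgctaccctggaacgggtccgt
Rplp2: cctttcgccgccggacgccgccgaggtcgc
Rpl41: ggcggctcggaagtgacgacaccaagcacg
Rps16: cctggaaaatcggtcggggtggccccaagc

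Of the 65 genes, 57 were kept (33 of the large subunit, 21 of the small subunit and the 3 of the stalk), and 56 of these were detected on all 24 arrays. Rps16, a small subunit protein, was detected on 11 arrays. Mean values of the kept probes ran from 6.60 for Rps16 to 13.97 for Rplp0, but the signal of 1 probe cannot be set against that of another. The 8 probes that were not kept were those of Rpl11, Rpl12, Rpl34, Rpl36a, Rps19, Rps9 and Rpl3l, detected on no array, and Rpl5, detected on 1 array. Their median raw signals lay between 43.3 and 104.7, against array medians over all probes of 48.6 to 72.8, so they were not well above background. Rpl5 and Rpl11 bind the 5S RNA and the regulator Mdm2, and Rps19 is mutated in Diamond-Blackfan anaemia; nothing could be said of them. Rpl3l, which in mouse and human replaces Rpl3 in heart and skeletal muscle, read 6.05 to 6.25 on the 6 arrays high in muscle genes and 5.79 to 6.42 on the other 18. RefSeq holds 154 gene symbols in the form of a numbered copy of 46 of the 65, with up to 11 for 1 gene. The paralogs Rpl7l1 and Rpl22l1, themselves among the 65, are counted in this. Whether a probe also binds RNA of such a gene could not be checked without its sequence.

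Vincristine was set against control over the 3 drug groups, 12 arrays against 12, to see whether the neuropathy changed the ribosomal protein messages. No ribosomal protein probe passed the adjusted threshold of 0.05 (limma with Benjamini-Hochberg adjustment over all kept probes), while 14 of 7043 probes did (0.199%). At an unadjusted p under 0.05 there were 3 of 57 (5.26%), against 2.77% of all kept probes; this count was 1 to 3 when single arrays were left out, 0 under median centring and 1 with the 6 muscle-rich arrays left out. There were 4 of 57 (7.02%) with the set as a block, against 6.62% of all kept probes. The differences were small: 42 of the 57 were above 0 (73.7%; 49.4% of all kept probes) and 15 below, with a median of 0.0208 where the median of all kept probes was -0.000887. The count above 0 ran from 31 (without vincristine-oxycodone replicate 1, median 0.0017) to 51 (without vincristine-oxycodone replicate 2, median 0.0297). The differences ran from -0.162 to 0.112, which is 0.894-fold to 1.08-fold, and 55 of 57 lay within 0.1 of zero. The 95% interval lay within 1.2-fold of no change for 45 probes (78.9%; 78.5% of all kept probes) and within 1.5-fold for 55 (96.5%; 95.6%). The red cell list beside it differed by a median of 1.53, with 7 of 7 probes called, and the muscle list by a median of 0.799, with 9 of 9 probes above 0 and 0 called, while 2 of 11 fibroblast and matrix probes were above 0 (median -0.0605, 0 called). Their part in the ribosomal protein values was not tested; after the 6 muscle-rich arrays were left out, the median over the ribosomal protein probes was 0.0141.

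Rpl10 had the highest difference of the 57. It is the X-linked protein that joins the large subunit late in its assembly. Its values over the 12 vincristine arrays were 12.52 at the lowest, 12.68 at the median and 12.92 at the highest, against 12.47, 12.58 and 12.73 over the 12 control arrays. The groups overlapped, and the highest value, 12.92, came from a vincristine-morphine treated rat. The difference was 0.112 ± 0.0483 (SE; 95% interval 0.0116 to 0.212 before adjustment; limma adjusted p = 1), and vincristine was higher in each of the 4 sets. With the set as a block the adjusted p = 0.263.

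Rps15, a small subunit protein needed for export of the subunit from the nucleus, had the lowest difference. It read 11.27, 11.49 and 11.77 (lowest, median, highest) on vincristine arrays and 11.28, 11.64 and 11.97 on control arrays. These ranges also overlapped over most of their width. The difference was -0.162 ± 0.0702 (SE; 95% interval -0.308 to -0.0161; limma adjusted p = 1, and adjusted p = 0.394 with the set as a block). Rps29, a zinc-binding protein of the small subunit head, read 11.88, 12.01 and 12.20 on vincristine arrays and 11.93, 12.12 and 12.24 on control arrays. Its difference was -0.0985 ± 0.0439 (SE; 95% interval -0.19 to -0.00714; limma adjusted p = 1, and adjusted p = 0.568 with the set as a block). Both genes were lower with vincristine in each of the 4 sets. Over all 57 probes, 6 were higher in every set (10.5%; 6.23% of all kept probes) and 3 lower in every set (5.26%; 8.18%).

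**Figure D1:**
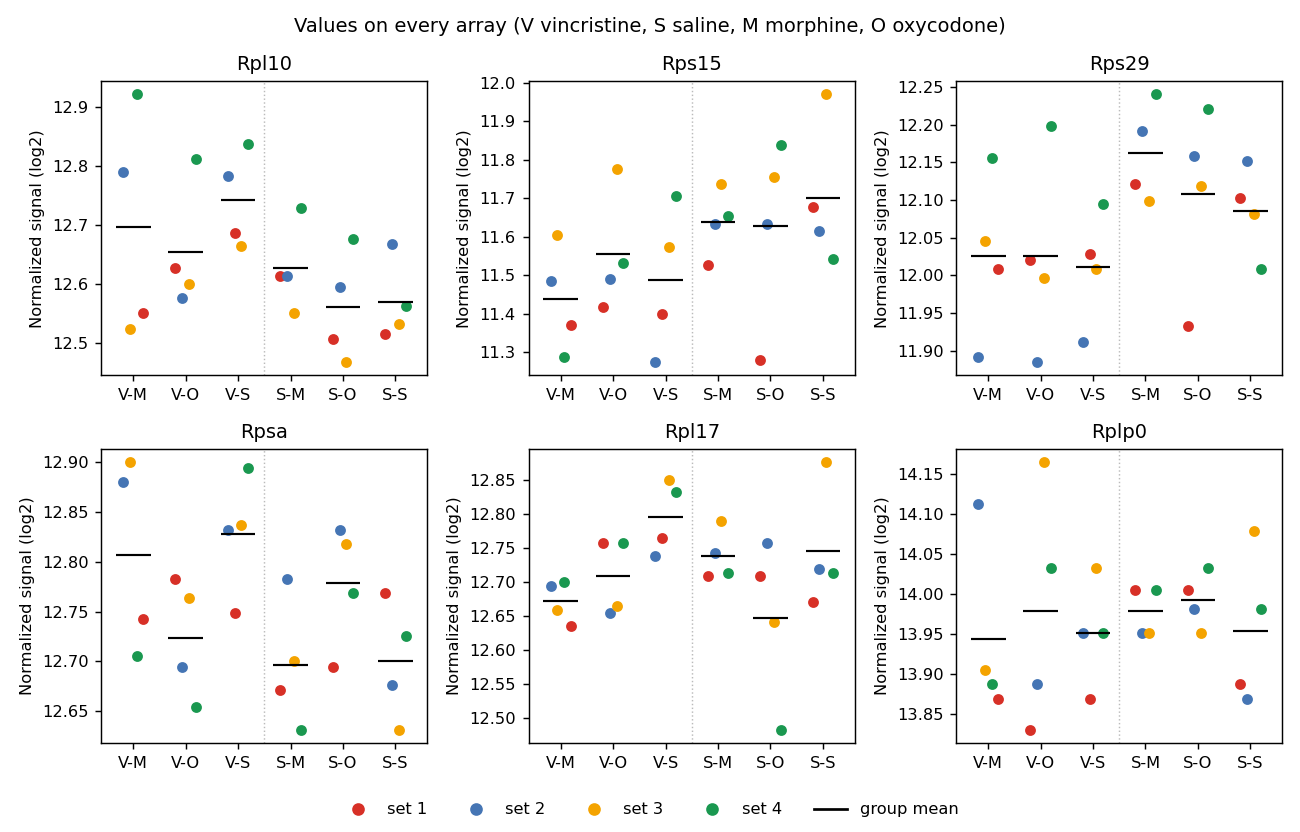
Normalized log2 signals of 6 ribosomal protein genes on every array (y axis, log2; x axis, the 6 groups of 4 rats, vincristine groups left of the dotted line). Points are arrays, coloured by set, and bars are group means. In Rpl10 the set 4 array is the highest in all 3 vincristine groups, in Rpl17 every vincristine-morphine array lies below every vincristine-saline array, and the axes span less than 1 log2 unit.

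**Figure D2:**
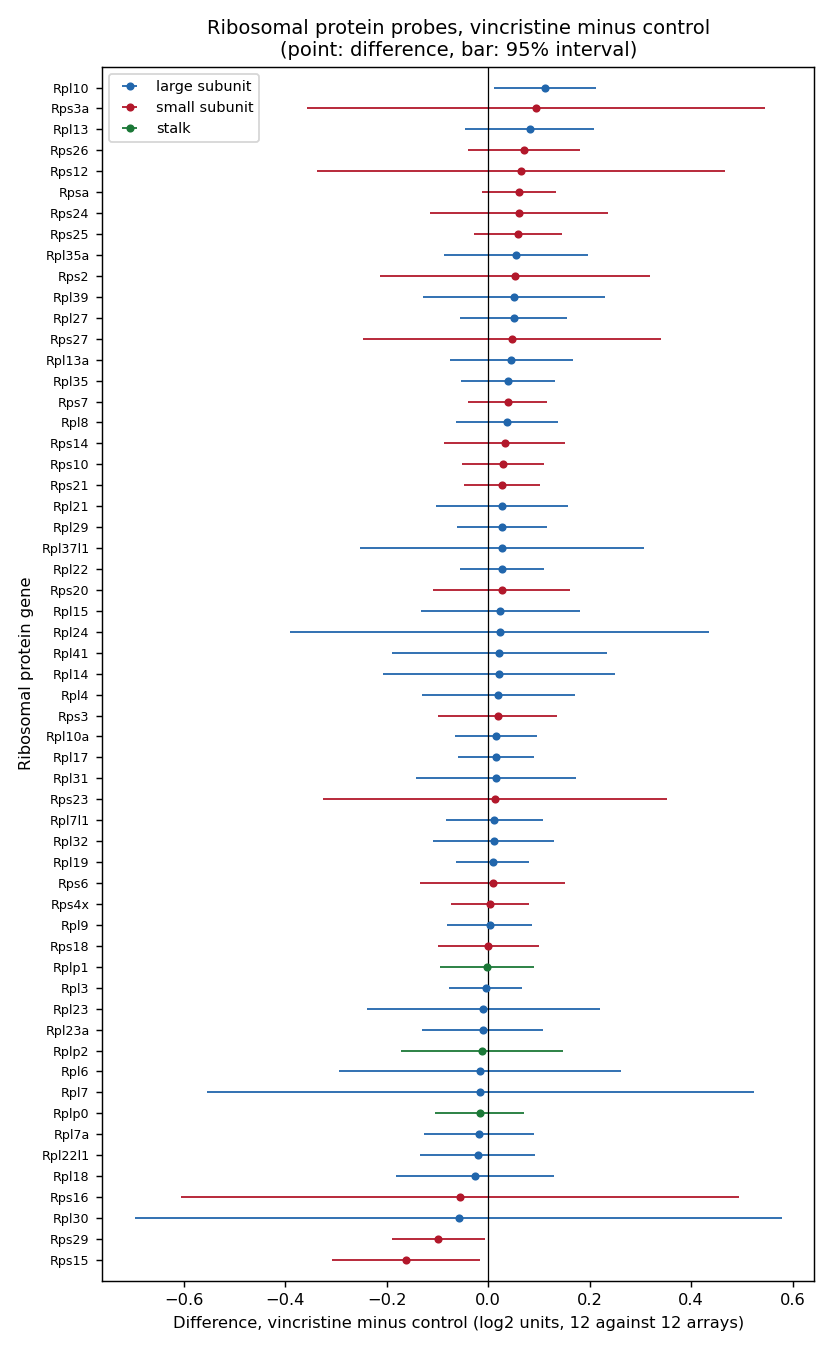
Difference of vincristine minus control (x axis, log2 units) for the 57 kept ribosomal protein probes (y axis), with 95% intervals from limma. The intervals of Rpl10, Rps29 and Rps15 leave 0 out before adjustment, and those of Rpl30, Rps16 and Rpl7 are the widest.

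Vincristine without an opioid (vincristine-saline against saline-saline, 4 against 4) gave a median of 0.0421, with 45 probes above 0 (78.9%; 49.7% of all kept probes) and 12 below, and again 0 of 57 called, with 2 of all kept probes called (0.0284%). Only Rpsa had an unadjusted p under 0.05 (1 of 57, 1.75%; 1.77% of all kept probes); this count was 0 to 2 when single arrays were left out and 0 with the replicate number as a block. It was 3 (5.26%; 4.23% of all kept probes) with the set as a block. Of the 57 probes 5 were higher in every set (8.77%, against 5.79% of all kept probes) and 0 lower (0%, against 6.83%). The count above 0 was 31 without saline-saline replicate 4 (median 0.00521). In this comparison the red cell list had a median of 1.23 (7 of 7 above 0, 2 called) and the muscle list one of 0.407 (8 of 9 above 0, 0 called), and their part was not tested. Rpsa is a small subunit protein that also acts as a laminin receptor at the cell surface. It read 12.83, 12.75, 12.84 and 12.89 in vincristine-saline treated rats and 12.77, 12.68, 12.63 and 12.73 in saline-saline treated rats. Of the 4 vincristine-saline values 3 lay above every saline-saline value. The difference was 0.128 ± 0.0608 (SE; limma adjusted p = 1), and the two-sided exact permutation test over the 70 regroupings gave p = 0.0571, where the smallest possible is 0.0286. These regroupings, here and below, take no account of the set. Rpl10 came next with 0.173 ± 0.0836 (exact permutation p = 0.0571), and Rps15 was the lowest at -0.213 ± 0.122 (exact permutation p = 0.2).

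Genes chosen for their roles showed no call either. Of 24 such genes 19 had a probe and 15 of these were kept. With vincristine 10 of the 15 were above 0 and 5 below, between -0.0211 for Rpl22l1 and 0.0613 for Rpsa. The stalk proteins were close to 0: Rplp0 at -0.0173 (95% interval -0.105 to 0.0706), Rplp1 at -0.0025 and Rplp2 at -0.0124. Rplp1 read 11.73, 11.91 and 12.05 (lowest, median, highest) on vincristine arrays and 11.79, 11.88 and 12.06 on control arrays, and Rplp0 read 13.83, 13.93 and 14.16 on vincristine arrays and 13.87, 13.98 and 14.08 on control arrays, so that both overlapped nearly throughout. With array weights the sign of Rplp0 turned, at 0.0195. Rps6, the substrate of the S6 kinases, was at 0.00874, Rps3, which also acts in DNA repair, at 0.0183, and Rpl13a, known from the interferon response of human cells, at 0.0451. Paralogs were read beside their partners: Rpl22 was at 0.0264 and Rpl22l1 at -0.0211, while Rpl7 was at -0.0159 and Rpl7l1 at 0.012, and the difference within a pair was not tested. Rpl7 had an SD within groups of 0.681, against 0.103 for Rpl7l1, so its difference was only loosely determined.

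Opioid treatment was set against saline over both arms, 16 arrays against 8. Again 0 of 57 probes were called, with 8 of 7043 called overall (0.114%), and none had an unadjusted p under 0.05, against 2.9% of all kept probes. The median was -0.0322, with 12 above 0 (21.1%; 48.3% of all kept probes) and 45 below, while the median of all kept probes was -0.00244. With the set as a block 4 of 57 had an unadjusted p under 0.05 (7.02%), against 7% of all kept probes. The count above 0 ran from 9 (without vincristine-saline replicate 1, saline-saline replicate 2 or saline-saline replicate 4) to 20 (without saline-saline replicate 1, median -0.0181), and was 19 without saline-saline replicate 3. Of the marker lists, the muscle list had a median difference of 0.704 (9 of 9 probes above 0, 0 called), the red cell list one of -0.0793 (0 of 7 above 0, 0 called) and the fibroblast and matrix list one of -0.1 (1 of 11 above 0, 0 called). The only marker probe called was that of Trem2, a receptor of macrophages, at -0.36 ± 0.0689 (SE; limma adjusted p = 0.0365), among 6 macrophage probes with a median of -0.0104. What part these played was not tested; after the muscle-rich arrays were left out, the median over the ribosomal protein probes was -0.0342.

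Rpl17, a large subunit protein at the mouth of the exit tunnel for the growing chain, had the smallest p. Its values were 12.48, 12.70 and 12.79 (lowest, median, highest) over the 16 opioid arrays and 12.67, 12.75 and 12.88 over the 8 saline arrays. The lowest value came from a saline-oxycodone treated rat. The difference was -0.0789 ± 0.0382 (SE; 95% interval -0.158 to 0.000543; limma adjusted p = 1), and it was negative in all 4 sets. Rps16 (-0.53), Rpl35a (-0.118) and Rps4x (-0.0634) followed in the same direction. Above 0 the smallest p belonged to Rps24 (0.0796), Rpl7l1 (0.0427), Rps29 (0.0319) and Rplp2 (0.0533). Over all 57 probes, 14 were lower in every set with an opioid (24.6%, against 8.65% of all kept probes). In the other direction 1 was higher in every set (1.75%, against 8.53%).

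Within the vincristine arm both opioids were compared with the same 4 vincristine-saline arrays. The same arrays were also set against saline-saline above. High values on them would raise that median and lower both opioid medians, so these comparisons are not independent. Vincristine-morphine gave a median of -0.0315 (11 above 0, 46 below) and vincristine-oxycodone one of -0.0524 (10 above 0, 47 below), where 48.8% and 50.4% of all kept probes were above 0, with 0 called in each, of ribosomal protein probes and of all probes (0%). At an unadjusted p under 0.05 there were 0 ribosomal protein probes in each, against 1.82% and 1.65% of all kept probes. A block for the set gave 2 after morphine (3.51%; 5.03% of all kept probes) and 1 after oxycodone (1.75%; 3.89%). After morphine 9 of 57 were lower in every set (15.8%, against 6.64% of all kept probes) and 0 higher (0%, against 5.69%). After oxycodone 13 were lower in every set (22.8%, against 5.72%) and 0 higher (0%, against 5.65%). The count above 0 rested on single arrays. After morphine it was 27 without vincristine-morphine replicate 3 (median -0.00289), 24 without vincristine-saline replicate 2 and 20 without vincristine-saline replicate 4. After oxycodone it was 26 without vincristine-oxycodone replicate 2 (median -0.0115), 18 without vincristine-saline replicate 2 and 17 without vincristine-oxycodone replicate 4. After the muscle-rich arrays were left out the morphine median was 0.00128. That removed vincristine-morphine replicates 1 and 3 and vincristine-saline replicate 2 from the comparison. The muscle list had medians of 1.58 after morphine and 0.643 after oxycodone (9 of 9 above 0 in each). The fibroblast and matrix list had medians of -0.221 (0 of 11 above 0) and -0.126 (1 of 11). The macrophage list had medians of -0.169 (0 of 6) and 0.0493 (4 of 6). No probe of these lists was called, and their part was not tested. In 2 of 57 probes (3.51%; 1.04% of all kept probes) the vincristine-morphine and vincristine-saline arrays did not overlap. Rpl17 read 12.69, 12.66, 12.70 and 12.64 in vincristine-morphine treated rats and 12.74, 12.76, 12.85 and 12.83 in vincristine-saline treated rats. Every morphine value was below every saline value, with a difference of -0.124 ± 0.0624 (SE; limma adjusted p = 1; two-sided exact permutation p = 0.0286, the smallest possible). Rpl35, beside Rpl17 at the exit tunnel, read 11.82, 11.63, 11.79 and 11.74 in vincristine-morphine treated rats and 11.84, 11.86, 11.83 and 11.95 in vincristine-saline treated rats. The groups came as close as 11.822 and 11.825, and the difference was -0.123 ± 0.0767 (exact permutation p = 0.0286). Groups of 4 without overlap always give this permutation p, so in these 2 genes it adds nothing to the lack of overlap. In vincristine-oxycodone treated rats Rpl17 differed by -0.088 ± 0.0624 and Rpsa, which had the smallest p there, by -0.104 ± 0.0608 (exact permutation p = 0.0857). Rps6 was at -0.129 after morphine and -0.128 after oxycodone.

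In control rats the medians were closer to 0: -0.00609 for saline-morphine (24 above 0, 33 below) and -0.0252 for saline-oxycodone (18 above 0, 39 below), where 50.3% and 49.1% of all kept probes were above 0, both against the same 4 saline-saline arrays. The first turned to 0.117 when arrays were centred on their median in place of quantile normalization, a setting that put the median of all kept probes at 0.12. No ribosomal protein probe was called or had an unadjusted p under 0.05 in either comparison, against unadjusted shares of 2.09% and 2.67% of all kept probes; with the set as a block there were 0 for saline-morphine (5.57% of all kept probes) and 1 for saline-oxycodone (1.75%; 7.28%). With 1 array left out the count above 0 ran from 14 (without saline-saline replicate 2) to 38 (without saline-saline replicate 3) for saline-morphine, and from 12 (without saline-saline replicate 4) to 27 (without saline-saline replicate 1 or 3) for saline-oxycodone. For saline-morphine 3 of 57 were lower in every set (5.26%, against 6.38% of all kept probes) and 1 higher (1.75%, against 7.41%). For saline-oxycodone 4 were lower in every set (7.02%, against 6.74%) and 1 higher (1.75%, against 6.59%). The smallest p for saline-morphine was that of Rps10, at -0.0808 ± 0.0671 (exact permutation p = 0.0857), and for saline-oxycodone that of Rps16. Next in saline-oxycodone came Rpl17 (-0.0977), Rpl39, a short protein lining the exit tunnel (-0.217), and Rps21 (-0.0803). Rpl39 read 11.54, 11.20, 11.41 and 10.87 in saline-oxycodone treated rats and 11.68, 11.35, 11.65 and 11.20 in saline-saline treated rats. The value of 10.87 was the lowest of all 24 arrays. The groups overlapped, but in each of the 4 sets the saline-oxycodone value was below the saline-saline value. With the set as a block the limma adjusted p of Rpl39 was 0.598.

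**Figure D3:**
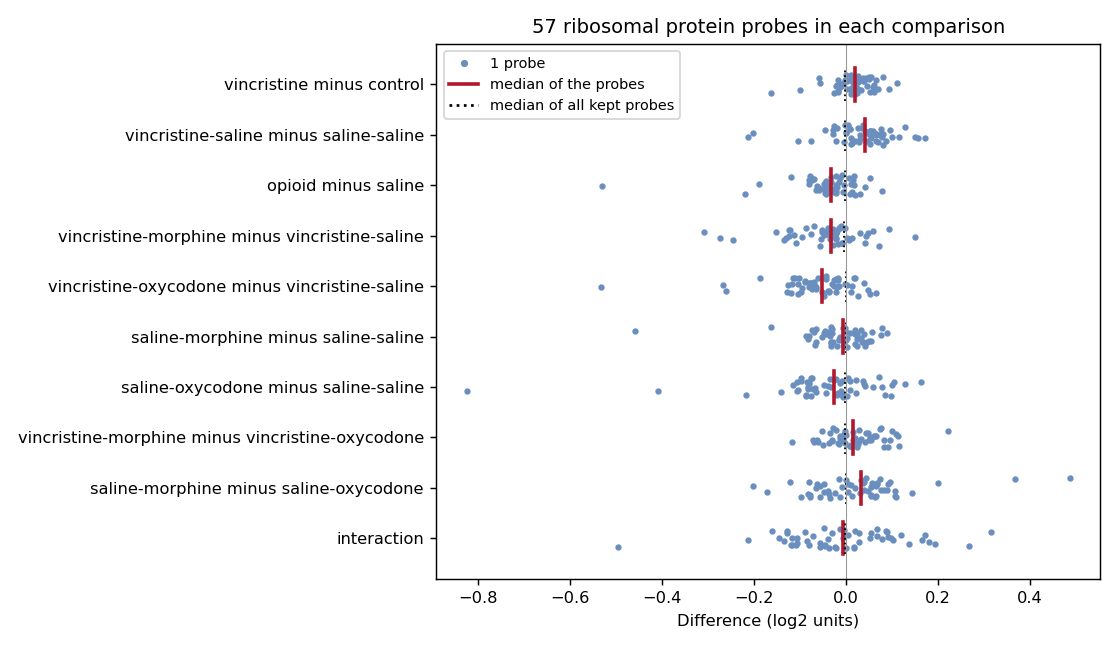
Differences of the 57 kept ribosomal protein probes (x axis, log2 units) in the 10 comparisons (y axis), with the median of these probes in red and that of all kept probes dotted. The red line lies at 0.0421 in vincristine-saline minus saline-saline and at -0.0524 in vincristine-oxycodone minus vincristine-saline, and the point at -0.824 is Rps16. Both medians use the same vincristine-saline arrays, with opposite sign.

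Morphine was then set against oxycodone. In vincristine-treated rats the median was 0.0154 (34 above 0, 23 below) and in controls 0.0322 (36 above 0, 21 below), where 49.3% and 50.2% of all kept probes were above 0, with 0 called among all probes in each. None of the 57 had an unadjusted p under 0.05, against 0.753% and 3.81% of all kept probes. With the set as a block there were 0 in vincristine-treated rats (2.64% of all kept probes) and 4 in controls (7.02%; 10%). The medians turned to -0.0314 without vincristine-oxycodone replicate 2 and to -0.0233 without saline-morphine replicate 1. Median centring put the control value at 0.199, beside 0.19 for all kept probes. Rpsa had the smallest p above 0 in the vincristine arm, at 0.0831 ± 0.0608 (exact permutation p = 0.229), while in controls its difference was -0.0818 ± 0.0608 (exact permutation p = 0.143). It read 12.88, 12.90, 12.71 and 12.74 in vincristine-morphine treated rats and 12.78, 12.69, 12.76 and 12.65 in vincristine-oxycodone treated rats. In controls it read 12.67, 12.78, 12.70 and 12.63 with morphine and 12.69, 12.83, 12.82 and 12.77 with oxycodone. The interaction of vincristine with the opioid difference was 0.165 ± 0.086 (SE; 95% interval -0.0141 to 0.344; limma adjusted p = 1). Over the 57 probes the interaction had a median of -0.00563, with 25 above 0, where 49.5% of all kept probes were, and no ribosomal protein probe had an unadjusted p under 0.05 in the interaction, against 2.98% of all kept probes. A block for the set gave 1 (1.75%; 8.77%). The count above 0 in the interaction ran from 16 (without vincristine-oxycodone replicate 2) to 34 (without saline-morphine replicate 1). Between saline-morphine and saline-oxycodone 1 of 57 probes did not overlap (1.75%; 1.58% of all kept probes). This was Rps21, a small protein of the small subunit, at 12.041, 12.037, 12.012 and 12.002 with morphine and 11.966, 11.955, 11.928 and 11.975 with oxycodone. The muscle list was higher with morphine by a median of 0.943 in the vincristine arm and 1.2 in controls (9 of 9 probes above 0 in each, 0 called). In controls this rested on 1 array: the mean of the muscle probes was 10.52 on saline-morphine replicate 4. It was 6.601, 6.505 and 6.67 on the other saline-morphine arrays and 6.191 to 6.721 with oxycodone. In the vincristine arm it was 10.16, 7.2, 9.954 and 6.579 with morphine and 6.62 to 8.542 with oxycodone. The red cell list had medians of 0.556 and 0.0859 (7 of 7 above 0 in each, 0 called), with Alox15 at 1.26 ± 0.415 and Hba-a3 at 0.921 ± 0.36 in the vincristine arm. The fibroblast and matrix list had medians of -0.0679 in the vincristine arm (2 of 11 above 0) and 0.213 in controls (10 of 11 above 0), with 0 called. The part of these lists was not tested.

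Rps16 gave the largest single differences and is described apart. Its 24 values fell into separate ranges: 13 arrays on which it was not detected read 5.64 to 6.45, and the 11 on which it was detected read 6.84 to 7.95. It was detected on 2 vincristine-morphine, 1 vincristine-oxycodone, 3 vincristine-saline, 1 saline-morphine, 1 saline-oxycodone and 3 saline-saline arrays, thus on 5 of 16 opioid and 6 of 8 saline arrays. Saline-oxycodone treated rats read 7.22, 5.64, 6.04 and 6.02, against 5.97, 6.84, 7.76 and 7.65 in saline-saline treated rats. High and low values thus stood in both groups, and the difference of -0.824 ± 0.458 had an exact permutation p = 0.229. The group held 18.3% of its variance and the set 2.6%, the lowest set share of the 57, followed by Rps4x (4.36%) and Rpl17 (5.04%).

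Most of the other variation followed the sets. The share of a probe's variance held by set had a median of 53.5% over the 57 probes and 44.4% over all kept probes, and the share held by group 10% and 11.7%. In 45 of the 57 the range of the 4 set means was above that of the 6 group means (75.3% of all kept probes), and the sets held over 90% of the variance in 8. Rpl7, a large subunit protein that contacts the 5S RNA, had the largest share, 96.1%. Its set means were 8.62, 7.17, 7.48 and 7.26 for sets 1 to 4, so that set 1 stood 1.31 above the others, while its group means spanned 0.135. Rps23, which lies in the decoding centre, followed with 95.4% and set means of 10.67, 9.73, 10.06 and 9.84. Rpl41, the smallest protein of the ribosome, held 93.6% with set means of 13.61, 13.22, 13.47 and 13.04.

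Rpl30 had the widest range of set means, 1.61. It read 11.47, 11.60, 11.48, 11.42, 11.33 and 11.53 on the 6 set 1 arrays. The 18 other arrays lay between 9.16 and 10.61, with no overlap. Set 1 was the highest set for 25 of the 57 probes and the lowest for 18, so the sets did not shift all genes alike. Its direction was up in Rpl7, Rpl24, Rpl30, Rps3a and Rps12, and down in Rpl29, Rps14, Rps24 and Rpl31. Since each set held 1 array of every group, this variation did not favour a group, and it widened the errors of the fits without a block: the median standard error with vincristine was 0.0574 without the set and 0.0382 with it.

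**Figure D4:**
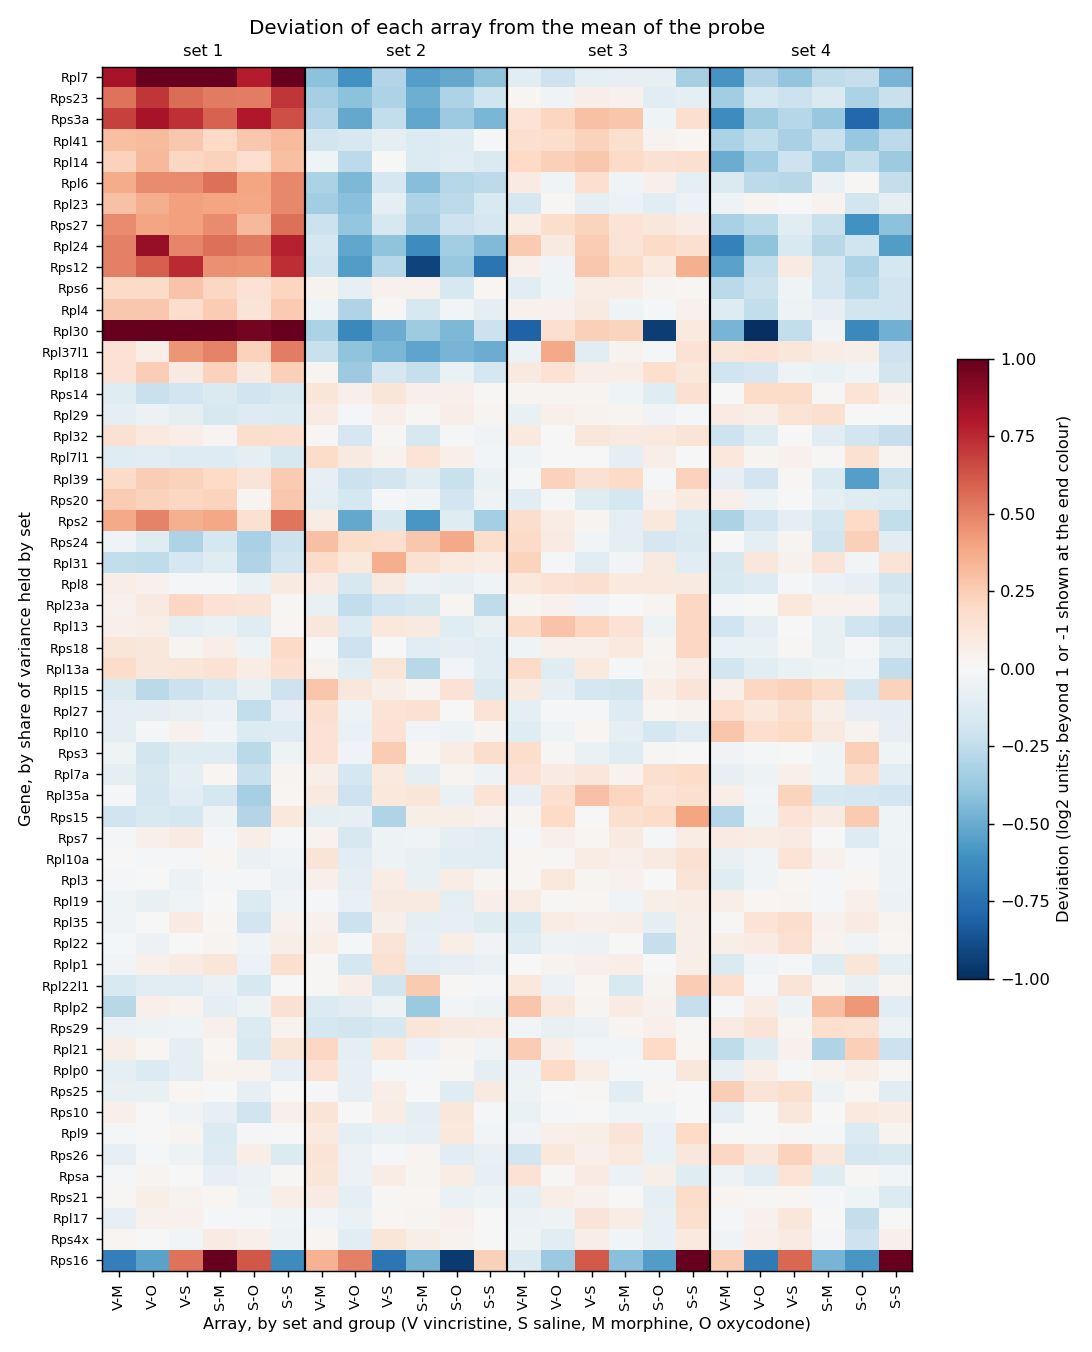
Deviation of each array from the mean of the probe (colour, log2 units) for the 57 kept probes (rows, ordered by the share of variance held by set) on the 24 arrays (columns, by set and then by group). Rpl7 at the top is high on all 6 set 1 arrays, and Rps16 at the bottom has high and low arrays within every set.

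**Figure D5:**
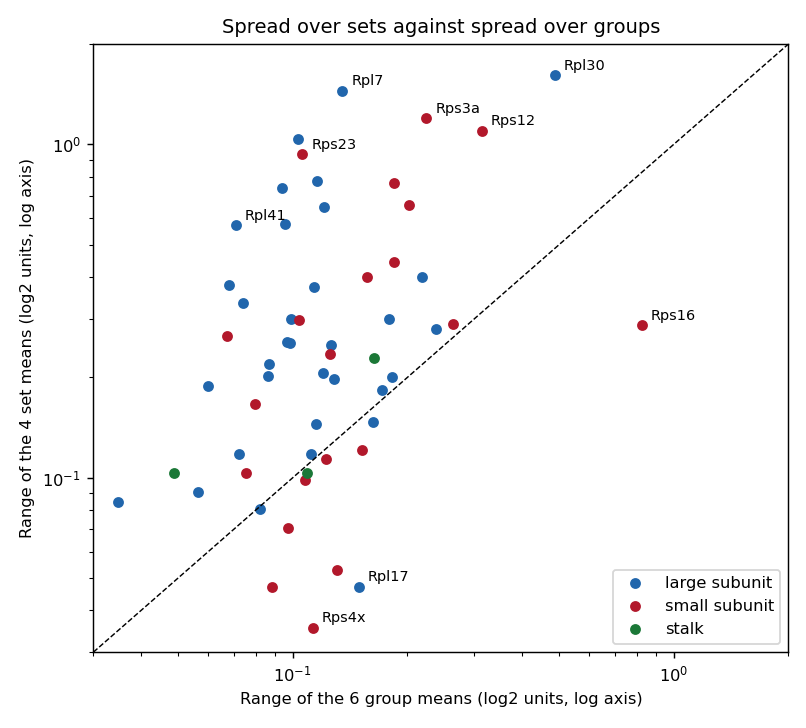
Range of the 4 set means (y axis, log2 units, log axis) against range of the 6 group means (x axis, log2 units, log axis) for the 57 kept probes; the dashed line marks equal ranges. The 45 probes above the line vary more between sets than between groups, and Rps16 lies farthest to the right.

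The mean of the 57 values on an array ran from 11.35 to 11.44 in set 1, 11.12 to 11.29 in set 2, 11.27 to 11.38 in set 3 and 11.17 to 11.31 in set 4. By group it averaged 11.29 ± 0.0784 in vincristine-morphine, 11.27 ± 0.128 in vincristine-oxycodone and 11.33 ± 0.0718 in vincristine-saline treated rats, and 11.28 ± 0.115, 11.25 ± 0.0706 and 11.30 ± 0.129 in saline-morphine, saline-oxycodone and saline-saline treated rats (SD, n = 4 each). The group means lay closer together than the arrays of a group, but the spread within a group includes the differences between sets. The sets averaged 11.40, 11.20, 11.32 and 11.22, with SDs over their 6 arrays of 0.0348, 0.0581, 0.0377 and 0.0491. A difference of this mean between groups was not tested. After removal of group and set, the ribosomal protein probes still varied together: the mean pairwise correlation over the 24 arrays was 0.186, against 0.00119 for all kept probes, and 54 of the 57 had a positive mean correlation with the others. Probes of 1 array share its RNA and its normalization, and under median centring the values were 0.739 and 0.656. The spread that remained was small, with a median SD within group and set of 0.0894 against 0.119 for all kept probes.

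Other genes of translation were read by lists. Of 17 kept probes for other TOP messages, such as elongation factors, 10 were above 0 with vincristine and 7 below (median 0.00955), and 6 above and 11 below with an opioid (median -0.0213). Eif4b, an initiation factor that stimulates the helicase of the cap complex, had the smallest p of these with an opioid, -0.116 ± 0.0474 (limma adjusted p = 1). Of 29 ribosome biogenesis probes 10 were above 0 and 19 below with vincristine (median -0.0165), with Polr1a, the catalytic subunit of RNA polymerase I, at 0.0942 ± 0.0764. With an opioid 18 of these 29 were above 0 and 11 below (median 0.0087). Of 8 kept probes for mTORC1 signalling and S6 kinases 6 were above 0 with vincristine (median 0.0157), with Ddit4, an inhibitor of the pathway, at 0.161 ± 0.0981. With an opioid 6 of the 8 were above 0 and 2 below (median 0.026). In controls Mlst8, a subunit of the mTOR complexes, differed by -0.224 ± 0.0719 between morphine and oxycodone (limma adjusted p = 1). The 8 probes ran from -1.47 to 0.189 there (median -0.0127), with 2 below 0 at an unadjusted p under 0.05 (3.81% of all kept probes passed it). In vincristine-treated rats they ran from -0.148 to 1.3 (median 0.00643), with 1 above 0 at that threshold (0.753% of all kept probes). In the interaction they ran from -0.336 to 2.78 (median 0.0426), with 2 above 0 at that threshold (2.98%). Each end of these ranges is 1 probe, so the ranges do not describe the list as a whole. Eef2k is among the 8 probes. The paper listed it as higher with morphine than with oxycodone after vincristine and lower in controls, without adjustment.

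Of 53 mitochondrial ribosomal protein probes, 25 were above 0 with vincristine and 28 below (median -0.00304), and 34 were above 0 and 19 below with an opioid (median 0.0153). Mrps26, a small subunit protein of the mitochondrial ribosome, had the smallest p with vincristine, at -0.409 ± 0.0944 (limma adjusted p = 0.109). None of the probes of these 4 lists was called in the comparisons of vincristine with control, of opioid with saline or of morphine with oxycodone.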

How the data were processed

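Total RNA of lumbar ganglia was hybridised by the authors to 22517-probe arrays, 24 in all. The authors deposited bead signals (linear intensity, not normalized) and a detection p-value for each probe and array, and a table of log2 values that equals quantile normalized log2 signals. Background correction and quantile normalization of the signals used neqc (limma 3.58.1, R 4.3.3). A probe was kept (7043) if its detection p was 0.0005 or less on 4 or more arrays. A gene was named from the platform annotation for 13787 probes, and 13747 of those symbols were updated by Entrez ID. Group means were fitted with lmFit and eBayes over all 24 arrays (18 residual degrees of freedom before moderation), with Benjamini-Hochberg adjustment within each of 10 comparisons. Single genes between groups of 4 were tested with a two-sided exact permutation test. The fit was checked on simulated data, drawn independently for each probe and array and without sets. That check does not cover the deviations shared within sets in the real data. The number of arrays, 4 per group, limits the precision; the arrays are separate rats.

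Named genes were, in each comparison, members past the threshold or else up to 4 of smallest p per direction, fixed members chosen by role, and those with the 3 largest and 3 smallest set shares. Up to 3 genes per list were considered. The members and lists were chosen with earlier results of these data known. The 4 column sets carried shared deviations: same-set arrays of different groups correlated at a mean r of 0.412 after removal of the group means. Alternatives covered background correction, normalization, filter, samples, variance model, weights, blocks, test and arrays. Probe sequences were not used here.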

Additional observations from a re-analysis of the deposited data

Results flagged for a closer look

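Among the 13 ribosomal protein genes described by sample, 78 groups of 4 arrays were examined for an array standing far from the rest of its group, and 5 were marked. The cutoff marks about 1 in 20 groups of independent, normally distributed values. The 78 groups share the same 24 arrays, so the count of 5 was not set against chance. Rpl35 read 11.66 in saline-saline replicate 2, below the others at 11.81 or more. Rplp0 read 14.11 in vincristine-morphine replicate 1, above the others at 13.91 or less. Rpl7 read 8.815 in saline-saline replicate 1, a set 1 array, above the others at 7.303 or less. Rps16 read 5.878 in vincristine-saline replicate 1, below the others at 7.14 or more, and 7.945 in saline-morphine replicate 1, above the others at 6.181 or less.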

How the results depend on the processing

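Across 15 other settings and 24 fits that left out 1 array, 0 ribosomal protein probes were called in every comparison. With the replicate number of the labels as a block, 0 were called in all 10 comparisons and the vincristine median stayed 0.0208; same-numbered residuals had a mean r of 0.0447, with 30 of 60 pairs over 0.1 and 17 of 24 arrays closest to their own number. In 4 of the 6 groups the number equals the column set, so it carries part of that pairing, and the set block was the fuller one. With the column set as a block the smallest adjusted p was 0.263 with vincristine. Leaving out 1 array, the medians ran from 0.0017 to 0.0381 with vincristine, 0.00521 to 0.0722 in vincristine-saline minus saline-saline, -0.0579 to -0.0181 with an opioid, -0.0449 to -0.00289 and -0.0918 to -0.0115 for vincristine-morphine and vincristine-oxycodone minus vincristine-saline, and -0.0697 to -0.000467 in saline-oxycodone minus saline-saline, and they crossed 0 in saline-morphine minus saline-saline (-0.0632 to 0.0245), both comparisons of morphine with oxycodone (-0.0314 to 0.0543 with vincristine, -0.0233 to 0.0457 in controls) and the interaction (-0.0486 to 0.0251). Median centring moved 3 medians, to 0.117 in saline-morphine minus saline-saline, 0.199 in saline-morphine minus saline-oxycodone and -0.149 in the interaction, where the medians of all kept probes moved to 0.12, 0.19 and -0.189.

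The signs of 44 differences were followed, those of smallest p per direction in each comparison. Other differences named above, such as those of fixed members, were not followed unless they were among these. Among the 44, signs turned 12 times in the other settings and 4 times when 1 array was left out. Under median centring these were Rplp0 in vincristine-oxycodone minus vincristine-saline (-0.0024), Rps10 (0.0465) and Rpl9 (0.0257) in saline-morphine minus saline-saline, and Rpl21 (0.00927) and Rpsa (0.077) in saline-morphine minus saline-oxycodone. Array weights turned Rplp0 (0.0195) and Rpl22l1 (0.00686) with vincristine. Without the arrays high in muscle genes it was Rpl7l1 with an opioid (-0.00985), Rpl22l1 in vincristine-morphine minus vincristine-saline (-0.00933), Rps15 (-0.0626) and Rplp0 (-0.122) in vincristine-oxycodone minus vincristine-saline, and Rps15 in vincristine-morphine minus vincristine-oxycodone (0.0336). The median of vincristine-morphine minus vincristine-saline was then 0.00128. Leaving out 1 array turned Rps15 (range -0.00763 to 0.138) and Rplp0 (-0.0358 to 0.0736) in vincristine-oxycodone minus vincristine-saline, both without vincristine-oxycodone replicate 3 and Rps15 also without vincristine-saline replicate 1 (-0.00609), and Rpl22l1 with vincristine (-0.0401 to 0.00578), without saline-morphine replicate 2. The 3 ribosomal protein probes of unadjusted p under 0.05 with vincristine became 1 without vincristine-morphine replicate 1 or 3, vincristine-saline replicate 1, saline-morphine replicate 3 or saline-oxycodone replicate 3 or 4. None of these differences had passed the threshold, and the cause was not tested. The removal of the Rps16 probe was chosen after seeing the data and gave a vincristine median of 0.0214. A fit of the compared groups alone was not run for the pooled comparisons and the interaction, which use all or most groups, nor the methods' t-test for the interaction. Signals near background limit Rps16 and the 8 probes not kept.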
